A study of Mus musculus with 19 samples.

Results

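The genes described here encode 10 components of the basement membrane: the laminin chains Lamb1, Lamc1, Lama2 and Lama4, the nidogen Nid1, the collagen IV chains Col4a1 and Col4a2, perlecan (Hspg2), and the collagens Col15a1 and Col18a1. They were chosen by symbol, with earlier results of these data known, although no threshold on their values entered the choice. All 10 were among the 12799 genes of the count table and among the 5980 that passed the filter on low counts. The libraries were made by MARS-seq, which counts the 3′ ends of polyadenylated RNA, from fibroblasts sorted from the peritoneum, the lining of the abdominal cavity. Every mouse was of the C57BL/6 background and carried a Col1a1-YFP transgene, so the sort depended on a reporter driven by the gene of a fibrillar collagen chain. Normal mice (n = 5) received PBS intraperitoneally. Tumour-bearing mice received tdTomato-marked ID8 cells, a mouse ovarian carcinoma line, in 200 µL of PBS, and were sampled at day 7 (n = 5), at day 28 (n = 5) or at an end stage whose day the labels do not state (n = 4, replicates 2 to 5). The labels call each library a biological replicate from a mouse and give no age. The comparisons describe how these genes differed between normal peritoneum and early, later and terminal metastasis.

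Basement membranes are thin sheets of extracellular matrix under epithelia and mesothelium and around blood vessels, muscle fibres, fat cells and nerves. Laminins are trimers of an alpha, a beta and a gamma chain that polymerise on the cell surface, and collagen IV forms a second network that nidogen and perlecan link to the laminins. Fibroblasts are a known source of collagen IV, nidogen and several laminin chains in connective tissue, and collagens XV and XVIII carry sugar side chains and sit where the basement membrane meets the underlying matrix.

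Depth limited the precision. Total counts per library ran from 66061 to 2449339, a ratio of 37.1, and 3 libraries held under 150000 counts: day 28 replicates 1 and 2 and end-stage replicate 5. Levels are given as CPM, the count of a gene divided by the library's size after TMM scaling and expressed per 1e6. Each of the 10 genes had at least 12 counts in every library, above the floor of 3 counts that a count of 0 allows. All 9 fibroblast markers were tested, and their summed level averaged 32516 CPM in normal and 36958 to 39152 CPM in the tumour groups. They include Col1a1, Col1a2 and Col3a1, and the sort used a Col1a1 reporter, so the sum is no independent check of the fibroblast label. Sums of markers of other cells that make basement membrane were as follows. The 9 endothelial markers in the table, of 10 listed, summed to 90 to 348 CPM per library, and the 7 mural ones, of 8 listed, to 118 to 454 CPM. The 12 mesothelial markers summed to 234 to 1441 CPM. Of the endothelial markers, Kdr, Tek and Esam had counts in all 19 libraries, while the other 6 were at 0 in at least 1 library, Pecam1 in 3 and Cdh5 in 2. The part of these cells in the levels below was not tested.

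Lamb1, the beta 1 chain found in most laminins of vessels and connective tissue, rose at day 7. Its level was 185, 208, 185, 197 and 215 CPM in normal replicates 1 to 5, and 401, 429, 530.3, 369.8 and 334 CPM in day 7 replicates 1 to 5. It was 222, 214, 205, 227 and 265 CPM in day 28 replicates 1 to 5, and 237, 305, 267 and 412 CPM in end-stage replicates 2 to 5. All 5 day 7 libraries lay above all 5 normal libraries and all 5 day 28 libraries, and the normal libraries were close together. In bulk samples such as these, more RNA per cell and more cells of the kind that make it cannot be told apart. The group means were 198 ± 13.4 CPM (SD, n = 5) in normal, 413 ± 74.7 CPM (SD, n = 5) at day 7, 227 ± 23.2 CPM (SD, n = 5) at day 28 and 306 ± 76.5 CPM (SD, n = 4) at the end stage. The log2 fold change from normal to day 7 was 1.06 ± 0.21 (SE), with an adjusted p of 0.0455 by edgeR's quasi-likelihood test with Benjamini-Hochberg adjustment, the smallest p of the 5980 genes. Lamb1 was thus 1 of the 10 genes called at day 7, where 0.0502% of all genes were called and 0.0334% were called higher. Groups that did not overlap, in the higher direction, were found for 0.401% of all genes.

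The fold change of Lamb1 at day 7 moved little, from 0.95 to 1.13 over all alternatives, but the adjusted p sat close to the threshold and ran from 6.834e-04 with DESeq2 to 0.467 without day 7 replicate 3. The call was lost without any 1 of the 5 normal libraries or of the 5 day 7 libraries (adjusted p 0.0637 to 0.467), although the smallest log2 fold change among these fits was still 0.95. It was lost too without day 28 replicates 1, 2 or 3 or end-stage replicates 2, 3 or 5 (adjusted p 0.0502 to 0.0638), libraries of neither group compared. It was also lost with the replicate number as a block, at 1.06 with an adjusted p of 0.0706. The authors' deposited table gives Lamb1 a log2 fold change of 1.05 and an adjusted p of 0.000456 for this comparison.

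Across the 4 groups jointly, Lamb1 was again the single gene of the 10 that was called, with an adjusted p of 0.0215 by edgeR's quasi-likelihood test, where 0.686% of all genes were called. This call was lost without day 7 replicate 3, the library with the highest Lamb1 level, after which 0 of the 10 were called. From day 7 to day 28, Lamb1 was at a log2 fold change of -0.86 ± 0.22 (SE), with an adjusted p of 0.319 by edgeR, which did not pass the threshold, and 0% of all genes were called in that comparison. limma-voom called it, at -0.88 with an adjusted p of 0.0317. Lower groups without overlap were found for 0.936% of all genes. Between normal and day 28 Lamb1 differed by 0.20 ± 0.22 (SE). At the end stage its level lay between those of normal and day 7, at 0.60 ± 0.22 (SE) against normal with an adjusted p of 0.428 by edgeR, and every end-stage library was above every normal one. Against day 7 the end stage was at -0.46 ± 0.22 (SE), with an adjusted p of 0.637 by edgeR and overlapping groups. In order of level the groups ran normal, day 28, end stage and day 7, and no neighbours in that order differed beyond the test's threshold.

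The window around the start site of Lamb1 is shown because this was the gene that was called. It is from RefSeq, build GRCm38.p6, on the plus strand of chromosome 12, at chr12:31265043-31265342, and runs from 250 bases before to 50 bases after the start. Capitals mark the motifs that were found, a CCAAT box and 2 GC boxes (GGGCGG, read on the opposite strand).
Lamb1: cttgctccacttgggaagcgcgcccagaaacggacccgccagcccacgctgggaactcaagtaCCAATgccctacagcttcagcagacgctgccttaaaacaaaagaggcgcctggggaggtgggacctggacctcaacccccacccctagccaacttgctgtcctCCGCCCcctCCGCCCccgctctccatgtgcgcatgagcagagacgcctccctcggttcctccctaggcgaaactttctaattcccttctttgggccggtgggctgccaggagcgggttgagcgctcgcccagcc
The Lamb1 window coincides over all 300 bases with that of a predicted gene on the opposite strand, Gm32899, whose start site is 201 bases away.

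Lamc1, the gamma 1 chain that pairs with beta 1 in the same trimers, was higher in the day 7 mean without a call. It averaged 348 ± 81.1 CPM (SD, n = 5) in normal, 517 ± 134 CPM (SD, n = 5) at day 7, 397 ± 142 CPM (SD, n = 5) at day 28 and 388 ± 38.6 CPM (SD, n = 4) at the end stage. The day 7 libraries ran from 408 to 714 CPM and the normal ones from 264 to 466.3 CPM, so the groups overlapped. Its log2 fold change at day 7 was 0.57 ± 0.24 (SE), with an unadjusted p of 0.0208 and an adjusted p of 0.999 by edgeR's quasi-likelihood test. Later stages were nearer to normal, at 0.14 ± 0.25 and 0.15 ± 0.25 (SE).

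The ratio of Lamb1 to Lamc1 counts was 0.587 ± 0.0957 (SD, n = 5) in normal, 0.823 ± 0.173 (SD, n = 5) at day 7, 0.629 ± 0.222 (SD, n = 5) at day 28 and 0.791 ± 0.203 (SD, n = 4) at the end stage. Every pair of groups overlapped in this ratio. The ratio of Lamb1 to Col4a1 separated day 7 from normal, at 0.281 to 0.459 per library against 0.176 to 0.212. It averaged 0.360 at day 7, and 0.194, 0.190 and 0.187 in normal, day 28 and end stage. The day 28 libraries ran from 0.105 to 0.329 and the end-stage ones from 0.111 to 0.289, so both groups overlapped with day 7. Ratios within a library do not depend on the scaling. These ratios were formed with the levels known and were not tested.

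The alpha chains give laminins their binding to cells. Lama2 is the alpha chain of the laminin around muscle fibres and Schwann cells, and Lama4 that of vessel and adipose laminins. Lama2 averaged 366 ± 155, 517 ± 181, 534 ± 283 and 365 ± 227 CPM (SD, n = 5, 5, 5 and 4) in normal, day 7, day 28 and end stage. Within every group its libraries differed widely, from 110 to 647 CPM at the end stage alone, and its log2 fold changes were 0.50 ± 0.37, 0.51 ± 0.38 and 0.04 ± 0.39 (SE) against normal. The end-stage value changed sign under other settings, and it was -0.37 without end-stage replicate 3 and 0.30 without end-stage replicate 5. Lama4 averaged 140.3 ± 34.4, 232 ± 84.5, 182 ± 74.5 and 180.5 ± 47.3 CPM (SD, n = 5, 5, 5 and 4). Its day 7 difference of 0.72 ± 0.27 (SE) had an unadjusted p of 0.0124 and an adjusted p of 0.999 by edgeR's quasi-likelihood test, with day 7 libraries at 144 to 371 CPM and normal ones at 107 to 185 CPM. At day 28 and at the end stage Lama4 differed from normal by 0.32 ± 0.29 and 0.43 ± 0.29 (SE).

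Schwann cells make Lama2, and the 5 Schwann markers in the table, of 6 listed, summed to 152 CPM on average in normal, 236 CPM at day 7, 410 CPM at day 28 and 187 CPM at the end stage, with a range of 62.5 to 854 CPM over all libraries. Skeletal muscle markers, 6 of 7 listed, averaged 224, 275, 151 and 138 CPM. Their part in the Lama2 levels was not tested.

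**Figure D1:**
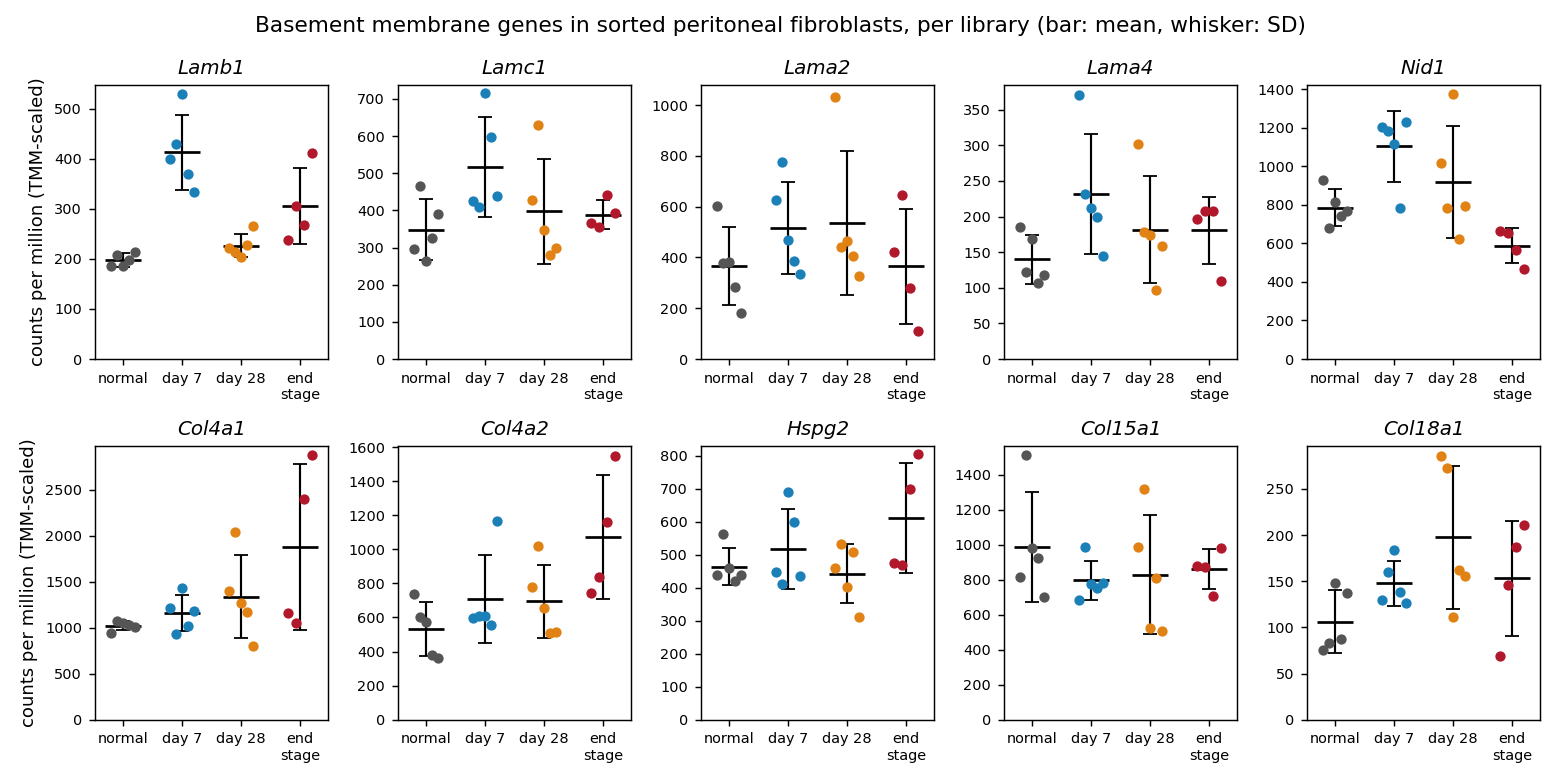
Level of each of the 10 genes in every library, in CPM with TMM-scaled library sizes, by group (points: libraries; bar: mean; whisker: SD; n = 5, 5, 5 and 4). The day 7 libraries of Lamb1 lie above all normal and day 28 libraries, the end-stage libraries of Nid1 lie below all normal and day 7 libraries, and Col4a1 is highest in 2 of the 4 end-stage libraries.

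Nid1, which bridges laminin and collagen IV, had its highest mean at day 7 and its lowest at the end stage. Its levels were 931, 677, 815, 741 and 766 CPM in normal replicates 1 to 5, and 1202, 1183, 1115, 786 and 1229 CPM in day 7 replicates 1 to 5. They were 1017, 783, 1376, 622 and 793 CPM in day 28 replicates 1 to 5, and 664, 652, 564 and 467 CPM in end-stage replicates 2 to 5. The 4 end-stage libraries were below all 5 day 7 libraries and below all 5 normal ones, and overlapped with day 28 through 1 library. Lower end-stage groups without overlap were found for 1.56% of all genes against day 7 and for 1.51% against normal.

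From day 7 to the end stage Nid1 differed by a log2 fold change of -0.90 ± 0.23 (SE), with an adjusted p of 0.0799 by edgeR's quasi-likelihood test, so that 0 of the 10 genes were called in that comparison, where 0.468% of all genes were called. The call depended on the tool. DESeq2 called Nid1 at -0.90 with an adjusted p of 0.00855, limma-voom at -0.79 with 0.0323, and edgeR with a minimum count of 30 at -0.93 with 0.0413. Over all alternatives the adjusted p ran from 0.00855 to 0.247 and the fold change from -1.004 to -0.79. The authors' deposited table gives -0.89 with an adjusted p of 0.015. Against normal, Nid1 was at 0.49 ± 0.21 (SE) at day 7, with an unadjusted p of 0.0290, at 0.22 ± 0.22 (SE) at day 28 and at -0.41 ± 0.23 (SE) at the end stage, and none of these passed the adjusted threshold. From day 28 to the end stage it was at -0.64 ± 0.23 (SE), with an adjusted p of 0.316 by edgeR. These comparisons share the same end-stage or normal libraries and are not independent. The means were 786 ± 95.0, 1103 ± 182, 918 ± 292 and 587 ± 91.2 CPM (SD, n = 5, 5, 5 and 4) in normal, day 7, day 28 and end stage. In order of level the groups ran end stage, normal, day 28 and day 7, and no neighbours differed beyond the threshold.

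Col4a1 and Col4a2 encode the alpha 1 and alpha 2 chains, which assemble in a fixed proportion into the collagen IV found in nearly all basement membranes. They had their highest group means at the end stage and were not called by edgeR in any comparison. Both lie head to head on chromosome 8, and the windows around their start sites are shown for that reason. The windows are from RefSeq, build GRCm38.p6, at chr8:11312777-11313076 on the minus strand for Col4a1 and at chr8:11312555-11312854 on the plus strand for Col4a2. Each is printed 5′ to 3′ on its gene's strand, from 250 bases before to 50 bases after the start, and capitals mark the bases that both windows hold.
Col4a1: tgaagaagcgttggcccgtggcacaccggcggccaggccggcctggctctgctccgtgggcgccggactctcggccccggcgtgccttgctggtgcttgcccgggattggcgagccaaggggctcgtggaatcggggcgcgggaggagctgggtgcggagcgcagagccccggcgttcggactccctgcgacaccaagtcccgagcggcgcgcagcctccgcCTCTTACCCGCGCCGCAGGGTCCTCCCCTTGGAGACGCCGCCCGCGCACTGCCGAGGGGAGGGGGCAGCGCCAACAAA
Col4a2: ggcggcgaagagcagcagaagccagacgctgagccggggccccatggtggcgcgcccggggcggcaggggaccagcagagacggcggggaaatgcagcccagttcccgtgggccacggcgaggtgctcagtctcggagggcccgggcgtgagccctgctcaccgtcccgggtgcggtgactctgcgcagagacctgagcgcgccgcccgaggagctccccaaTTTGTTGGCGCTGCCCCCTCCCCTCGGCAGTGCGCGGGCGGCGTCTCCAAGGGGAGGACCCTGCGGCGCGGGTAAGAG
The 78 bases in capitals are reverse complements of each other, and the start sites are 21 bases apart. In the same table, 3212 of 27025 genes (11.9%) had a window that overlapped one on the opposite strand.

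**Figure D2:**
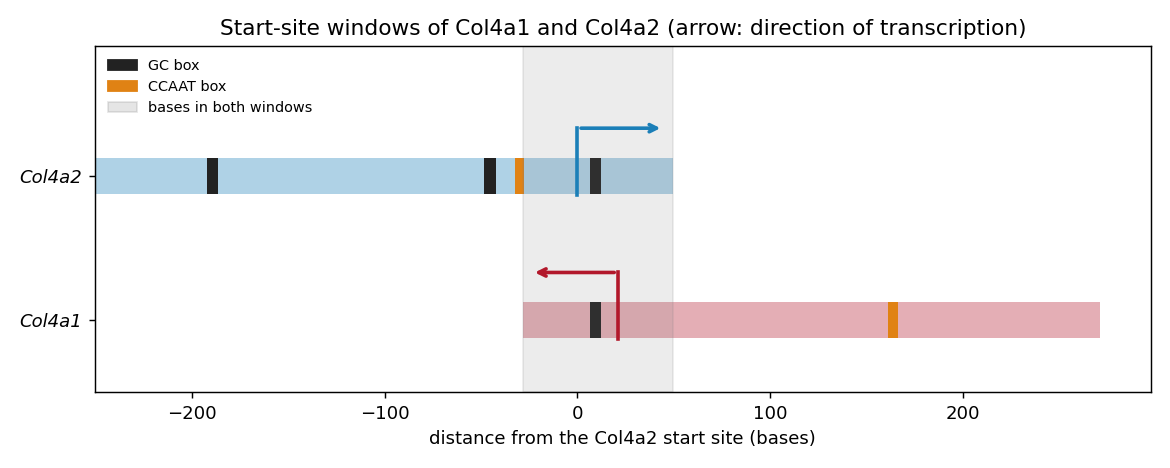
Map of the windows around the start sites of Col4a1 and Col4a2, in bases from the start site of Col4a2 (bars: windows of 300 bases; arrows: direction of transcription; black: GC box; orange: CCAAT box; grey: the 78 bases in both windows). The start sites are 21 bases apart, and 1 GC box lies in the bases that both windows hold.

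Col4a1 was at 948, 1075, 1049.9, 1031 and 1012 CPM in normal replicates 1 to 5, and at 1219, 934, 1433, 1025 and 1187 CPM in day 7 replicates 1 to 5. It was at 1398, 2041, 1271, 1167 and 805 CPM in day 28 replicates 1 to 5, and at 1166, 1057, 2397 and 2878 CPM in end-stage replicates 2 to 5. The normal libraries were tightly grouped, while at the end stage replicates 4 and 5 were more than 1000 CPM above replicates 2 and 3, and replicate 3 lay within the normal range. The means were 1023 ± 47.9, 1159.8 ± 192, 1337 ± 452 and 1875 ± 903 CPM (SD, n = 5, 5, 5 and 4). At the end stage the log2 fold change against normal was 0.87 ± 0.26 (SE), with an unadjusted p of 0.00216 and an adjusted p of 0.176 by edgeR's quasi-likelihood test. It was 0.60 without end-stage replicate 5, 1 of the shallow libraries, and 1.06 without replicate 3, and no alternative called it. At day 7 and day 28 the differences were 0.18 ± 0.25 and 0.37 ± 0.25 (SE).

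Col4a2 was at 740.0, 606, 576, 378 and 365 CPM in normal replicates 1 to 5, and at 595, 606, 609.8, 553 and 1166 CPM in day 7 replicates 1 to 5. It was at 779, 1021, 657, 508 and 512 CPM in day 28 replicates 1 to 5, and at 746, 839, 1161 and 1549 CPM in end-stage replicates 2 to 5. All 4 end-stage libraries were above all 5 normal ones, although the nearest of them, normal replicate 1 and end-stage replicate 2, were at almost the same level, and 1 day 7 library, replicate 5, stood above the other 4. The log2 fold change from normal to the end stage was 1.01 ± 0.27 (SE), with an adjusted p of 0.107 by edgeR's quasi-likelihood test. At the end stage 0 of the 10 genes were called against normal, where 0.401% of all genes were called, and 2 genes, Col4a2 and Lamb1, were higher without overlap, where 1.67% of all genes were. limma-voom called Col4a2, at 1.14 with an adjusted p of 0.0244, and over all alternatives the adjusted p ran from 0.0244 to 0.371. At day 7 and day 28 Col4a2 differed from normal by 0.41 ± 0.26 and 0.37 ± 0.27 (SE). The means were 533 ± 159.8, 706 ± 258, 695 ± 214 and 1074 ± 363 CPM (SD, n = 5, 5, 5 and 4).

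From day 7 to the end stage, Col4a1 differed by 0.69 ± 0.26 (SE) and Col4a2 by 0.60 ± 0.27 (SE), with adjusted p of 0.437 and 0.600 by edgeR's quasi-likelihood test. From day 28 to the end stage, Col4a2 differed by 0.64 ± 0.28 (SE), with an adjusted p of 0.431 by edgeR, where 0 of the 10 genes and 0.401% of all genes were called. The ratio of Col4a2 to Col4a1 counts was 0.524 ± 0.173, 0.617 ± 0.220, 0.529 ± 0.0742 and 0.614 ± 0.136 (SD, n = 5, 5, 5 and 4) in normal, day 7, day 28 and end stage, and all groups overlapped. The summed mural markers averaged 189, 166, 259 and 277 CPM and the endothelial ones 191, 178, 281 and 177 CPM in the same order. The part of these cells in the collagen IV levels was not tested.

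Whether counting used strand is not given in the sources used here. In the GENCODE M21 annotation, exons of Col4a1 and Col4a2 overlap each other on opposite strands, and exons of Col4a2, Lama2, Nid1 and Col15a1 overlap predicted genes on the opposite strand, namely Gm15419, Gm48084, Gm48682 and Gm12426. Reads from such overlaps may be split or shared, and the counts of these genes are uncertain to that extent. Where in each gene the overlaps lie was not examined. Col4a1 and Col4a2 lie head to head, so their start sites meet at the 5′ ends, while MARS-seq counts 3′ ends.

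**Figure D3:**
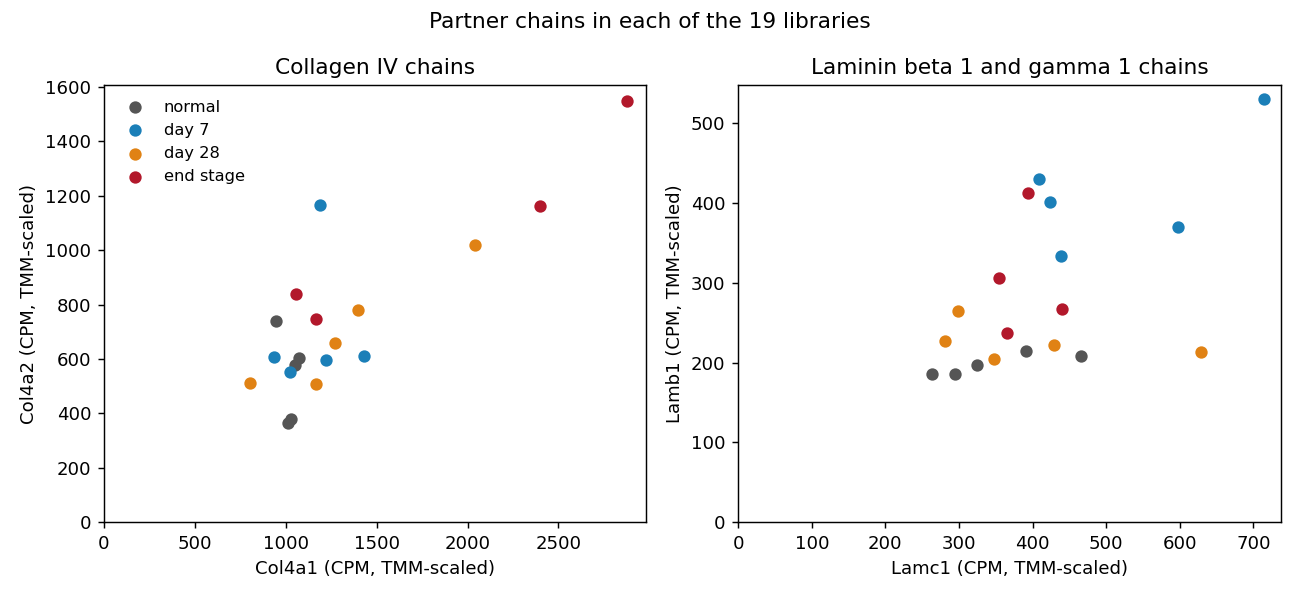
Levels of partner chains in each of the 19 libraries, in CPM with TMM-scaled library sizes (left: Col4a2 against Col4a1; right: Lamb1 against Lamc1; colour: group). End-stage replicates 4 and 5 are high in both collagen IV chains, and the day 7 libraries lie above the normal ones in Lamb1 over a shared range of Lamc1.

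Hspg2, the large proteoglycan that carries heparan sulphate chains, had day 7 and day 28 means close to that of normal. It averaged 465 ± 56.7, 518 ± 122, 443 ± 89.3 and 612 ± 168 CPM (SD, n = 5, 5, 5 and 4) in normal, day 7, day 28 and end stage. Its differences from normal were 0.16 ± 0.22, -0.09 ± 0.23 and 0.39 ± 0.23 (SE), and none passed the threshold. At the end stage it was at 475 and 469.7 CPM in replicates 2 and 3 and at 699 and 806 CPM in replicates 4 and 5, the same 2 libraries that were high in Col4a1.

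Col15a1 and Col18a1 encode collagens whose C-terminal fragments, restin and endostatin, are known inhibitors of vessel growth. Col15a1 averaged 988 ± 314, 796 ± 112, 829.5 ± 338 and 860.1 ± 113.02 CPM (SD, n = 5, 5, 5 and 4), and it alone of the 10 genes had a negative log2 fold change at all 3 stages, at -0.32 ± 0.24, -0.28 ± 0.25 and -0.21 ± 0.26 (SE). None of these passed the threshold. Without normal replicate 2, which held 1515 CPM, the 3 values were -0.11, -0.07 and -0.00. Col18a1 averaged 106 ± 33.9, 148 ± 23.9, 198 ± 77.3 and 153 ± 62.3 CPM (SD, n = 5, 5, 5 and 4). Its day 28 difference was 0.82 ± 0.31 (SE), with an unadjusted p of 0.0114 and an adjusted p of 0.579 by edgeR's quasi-likelihood test, and it was 0.45 without the 3 libraries under 150000 counts. The other differences were 0.49 ± 0.29 at day 7 and 0.51 ± 0.31 (SE) at the end stage. The ratio of Col18a1 to Col15a1 counts lay between 0.0546 and 0.196 in the normal libraries and between 0.200 and 0.307 in the day 28 libraries. These groups were thus nearly touching, and the day 28 libraries held 18 to 61 counts of Col18a1. The day 7 libraries, at 0.162 to 0.236, and the end-stage ones, at 0.0784 to 0.264, overlapped with both. This ratio was formed with the levels known and was not tested.

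At day 28, 0 of the 10 genes were called against normal by edgeR, where 0% of all genes were called, and DESeq2 and limma-voom also called 0. At an unadjusted p under 0.05 there was 1 of the 10, Col18a1, where 422 of the 5980 genes (7.06%) were. At day 7 there were 4 of the 10 at an unadjusted p under 0.05, where 3.48% of all genes were, and at the end stage 3 of the 10, where 7.04% were.

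The signs of the 10 genes leaned one way in the comparisons with normal, which share the 5 normal libraries. The 10 genes were chosen with earlier results of these data known, and the lean was not tested. The summed level of the 9 fibroblast markers also had higher means in the tumour groups. It averaged 32516 CPM in normal, and 39152, 37973 and 36958 CPM at day 7, day 28 and the end stage. Each tumour group overlapped with normal in this sum. Whether the lean of the 10 genes went beyond that of other fibroblast genes was not tested. At day 7, 9 of 10 log2 fold changes were positive with a median of 0.49, where 47.9% of all genes were positive with a median of -0.02. At day 28, 8 of 10 were positive with a median of 0.27, against 48.1% and -0.02. At the end stage, 8 of 10 were positive with a median of 0.41, against 48% and -0.02. For the mean of the 3 tumour stages against normal, 9 of 10 were positive with a median of 0.41, against 47.0% and -0.03, and 0 of the 10 were called, where 0.0502% of all genes were. That comparison had 5 of the 10 at an unadjusted p under 0.05, where 5.02% of all genes were: Lamb1 at 0.62 ± 0.18, Col18a1 at 0.61 ± 0.25, Col4a2 at 0.59 ± 0.22, Lama4 at 0.49 ± 0.23 and Col4a1 at 0.47 ± 0.21 (SE). From day 7 to day 28, 4 of 10 were positive with a median of -0.14, where 48.7% of all genes were positive. From day 7 to the end stage the figures were 5 of 10, -0.14 and 49.8%, and from day 28 to the end stage they were 7 of 10, 0.09 and 49.5%.

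**Figure D4:**
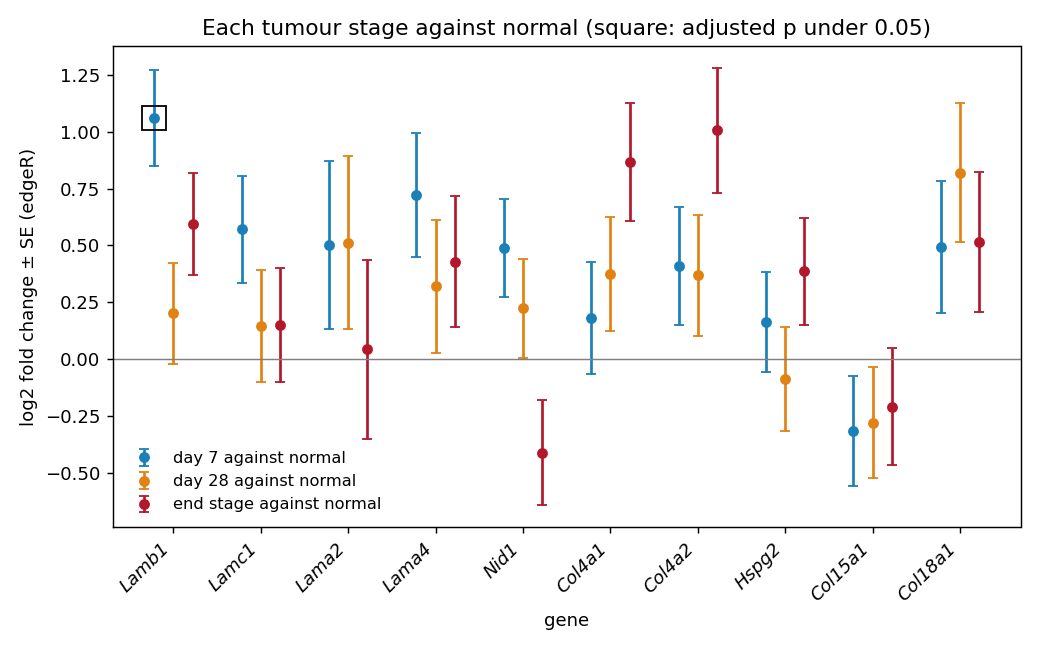
Log2 fold change of each of the 10 genes against normal at day 7, day 28 and the end stage, fitted by edgeR (points: estimate; whisker: SE; square: adjusted p under 0.05). Lamb1 at day 7, at 1.06, is the called value, Col4a1 and Col4a2 are highest at the end stage, and Col15a1 is below 0 at all 3 stages.

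Together the 10 genes summed to 4953 ± 552 CPM (SD, n = 5) in normal, 6108 ± 471 CPM (SD, n = 5) at day 7, 5760.5 ± 1392 CPM (SD, n = 5) at day 28 and 6400.4 ± 1249 CPM (SD, n = 4) at the end stage. The sum ran from 4327 to 5692 CPM in normal and from 5411 to 6736 CPM at day 7, and these ranges overlapped. As a share of all counts the means were 0.470%, 0.570%, 0.551% and 0.594%.

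The 10 genes did not form 1 block across the 19 libraries. In log2 CPM, Pearson's r was 0.76 for Col4a1 with Hspg2 and 0.74 for Col4a1 with Col4a2, and it was 0.71 for Lama2 with Lama4. Nid1 ran with Lama2, at 0.58, and against Hspg2, at -0.48, but at 0.40 and -0.30 without the 3 libraries under 150000 counts. Lamb1 and Lamc1 were at 0.54, but at 0.16 once each group's mean was removed and at 0.74 without the 3 libraries under 150000 counts. The corresponding values within groups were 0.79 for Col4a1 with Hspg2, 0.62 for Col4a1 with Col4a2 and 0.75 for Lama2 with Lama4. Without the 3 shallow libraries, r was 0.71, 0.55 and 0.62 for these pairs. Col4a2 with Hspg2 was at 0.51, at 0.36 within groups and at 0.30 without the shallow libraries. The points share their libraries and their depth, and the values are descriptions. Spearman's rho of single genes with the total count ran from -0.31 for Lama2 to 0.26 for Lamb1.

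**Figure D5:**
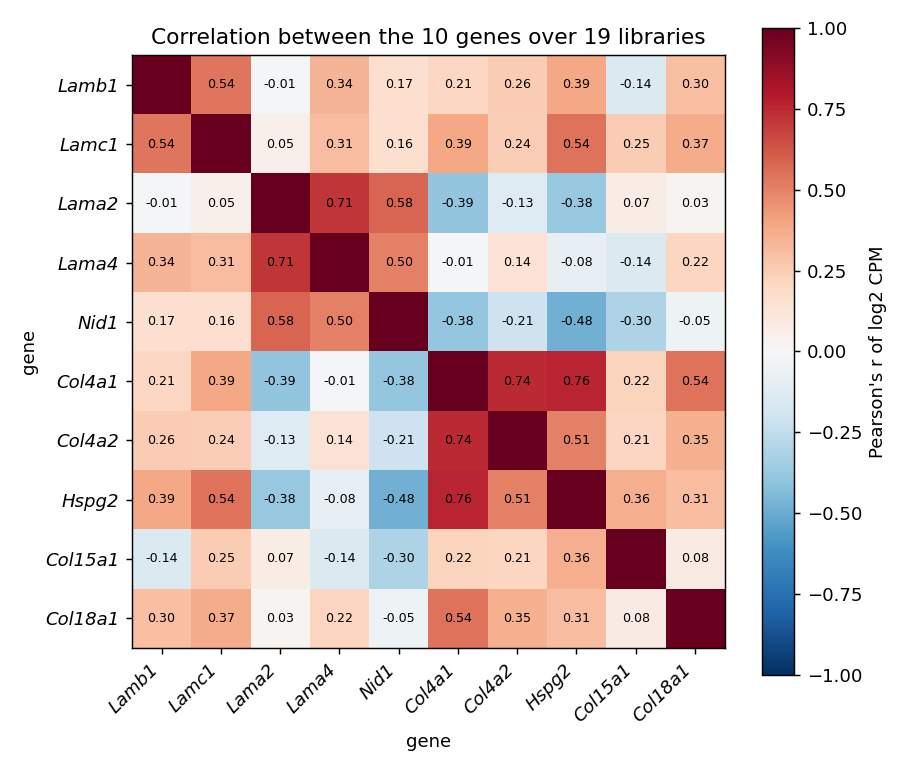
Pearson's r between the log2 CPM of each pair of the 10 genes over 19 libraries (colour scale from -1 to 1). Pairs among Col4a1, Col4a2 and Hspg2 are at 0.51 to 0.76, the lowest of them, Col4a2 with Hspg2, at 0.30 without the 3 shallow libraries. Pairs among Lama2, Lama4 and Nid1 are at 0.50 to 0.71. Without the 3 shallow libraries, Lama2 with Nid1 and Lama4 with Nid1 are both at 0.40.

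Among 3397 other genes that averaged 50 CPM or more, those whose level over the 19 libraries ran most like the mean of the 10 were Fbn1 (fibrillin 1, of elastic microfibrils) at an r of 0.74, Lgi2 at 0.72, Lrp1 (an endocytic receptor) at 0.66, P3h1 (a collagen prolyl 3-hydroxylase) at 0.64, Col5a1 (a chain of the fibrillar collagen V) at 0.63 and Hbb-bs (a haemoglobin chain) at 0.62. Once each group's mean was removed these values were 0.59, 0.75, 0.71, 0.67, 0.50 and 0.44.

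Other genes of the basement membrane stayed without a call against normal. Lamb2, the laminin beta 2 chain, was at -0.06 ± 0.26, -0.06 ± 0.26 and 0.04 ± 0.27 (SE) at day 7, day 28 and end stage. Col4a5, the 1 tested of 4 other collagen IV chains, was at 0.24 ± 0.36, 0.22 ± 0.40 and -0.51 ± 0.41 (SE). Of 16 other basement membrane components 8 were tested, with medians of -0.09, 0.07 and 0.03, while medians of all genes were -0.02 in all 3 comparisons. Sparc, a collagen-binding glycoprotein, had the smallest p of that list at each stage, at 0.51 ± 0.19, 0.27 ± 0.19 and 0.45 ± 0.20 (SE), with adjusted p of 0.999, 0.807 and 0.621 by edgeR's quasi-likelihood test. Of 12 receptors for laminin and collagen IV 6 were tested, with medians of 0.05, -0.20 and -0.16. Bcam, a receptor for laminins with the alpha 5 chain, was at -1.46 ± 0.49 (SE) at day 7, with an unadjusted p of 0.00629 and an adjusted p of 0.999 by edgeR. The normal libraries varied so widely in Bcam that their SD, 139 CPM, exceeded their mean, 122 CPM. The day 7 mean was 41.6 CPM, its SD was 18.1 CPM, and the groups overlapped. Bcam is also expressed by mesothelium, whose 12 markers summed to a mean of 785 CPM in normal and 478 CPM at day 7. The medians of these sums were 649 and 354 CPM, and the highest libraries were at 1441 and 847 CPM. The part of the mesothelial markers in the Bcam level was not tested.

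Enzymes that fold, modify and cross-link collagens were tested for 14 of 16 listed genes, with medians of 0.07, 0.11 and 0.31 at day 7, day 28 and end stage, and 0 were called against normal. Loxl2, a lysyl oxidase that acts on collagen IV, was at 0.74 ± 0.27 (SE) at day 7, with an adjusted p of 0.999 by edgeR's quasi-likelihood test. Lox, the lysyl oxidase that cross-links fibrillar collagens and elastin, averaged 279 ± 37.8, 277 ± 37.1, 140.5 ± 44.8 and 598 ± 336 CPM (SD, n = 5, 5, 5 and 4) in normal, day 7, day 28 and end stage. Against normal, Lox was at -1.04 ± 0.29 (SE) at day 28, with an adjusted p of 0.572 by edgeR. At the end stage it was at 1.12 ± 0.27 (SE) against normal, with an adjusted p of 0.0541 by edgeR, just short of a call. It rose from day 28 to the end stage by 2.16 ± 0.30 (SE), with an adjusted p of 1.259e-04 by edgeR, and was called in all 19 fits that left out 1 library. It also rose from day 7 to the end stage by 1.13 ± 0.27 (SE), with an adjusted p of 0.0481 by edgeR, a call that was lost in 15 of those 19 fits, and the fold change was 0.66 without end-stage replicate 4. Crtap, a partner of P3h1, was at 0.67 ± 0.27 and 0.78 ± 0.28 (SE) at day 28 and the end stage, and Plod1, a collagen lysyl hydroxylase, at 0.76 ± 0.27 (SE) at day 28, none of them called.

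Of 10 listed proteases of the basement membrane and their inhibitors 8 were tested, with medians of -0.13, -0.02 and -0.07 against normal and 0 called. Timp1, an inhibitor of matrix metalloproteinases, averaged 40.2 ± 22.6, 34.4 ± 14.0, 52.8 ± 49.04 and 158 ± 60.1 CPM (SD, n = 5, 5, 5 and 4). At the end stage Timp1 was at 1.97 ± 0.47 (SE) against normal, with an adjusted p of 0.0544 by edgeR, just short of a call. It rose from day 7 to the end stage by 2.30 ± 0.48 (SE), with an adjusted p of 0.0227 by edgeR's quasi-likelihood test, a call that was lost without day 7 replicates 2, 3 or 4 or end-stage replicate 4, at 1.96 in the last case. The 6 macrophage markers in the table, of 7 listed, summed to a mean of 32.8 CPM at day 7 and 207 CPM at the end stage, and their part in the Timp1 level was not tested. Timp2, a second inhibitor of the family, was at -0.57 ± 0.20 (SE) at the end stage against normal, with an adjusted p of 0.291 by edgeR.

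Windows around start sites were found for 8 of the 10 genes, 9 windows in all since Col18a1 has 2. Their GC content was at least 50.3% with a median of 63.7%, where the median of all 32851 windows was 52.7%. GC boxes (GGGCGG, both strands) were in 7 of the 9 windows and in 35.7% of all windows, and CCAAT boxes (CCAAT, both strands) in 5 of 9 and in 37.4%. The TATA box (TATAAA) and the AP-1 site (TGANTCA) were in 0 of the 9 windows and in 13.6% and 7.8% of all windows. The 1 GC box in the Col4a1 window lies in bases shared with the Col4a2 window and was counted in both. The shares of all windows include windows of genes that were not tested here. These matches are descriptions of the letters in each window.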

How the data were processed

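Peritoneal fibroblasts of 19 mice were profiled by MARS-seq, 1 library per mouse. The authors deposited a table of raw counts, per the file headers. The authors' deposited table also gives log2 fold changes and p-values, unadjusted and adjusted over genes. The other values the authors deposited are the table's thresholds, an adjusted p of 0.1, a log2 fold change of 0.58 and a highest count of 30. The 19 normalized columns were not used. DESeq2 and the build GRCm39 are named by the submitters' processing notes. Not given in the sources used here are the aligner, the counter, the annotation and how molecular identifiers were used. RNA integrity numbers were above 8, per the labels' protocols.

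Of 12799 genes, 5980 passed filterByExpr at a minimum count of 10. They were tested with edgeR 4.0.16 (TMM factors from 0.949 to 1.10, robust dispersion, robust quasi-likelihood F test, 1 model of the 4 groups without covariates) in R 4.3.3, with Benjamini-Hochberg adjustment over all genes and a threshold of 0.05. "Called" means an adjusted p under that threshold. The common biological coefficient of variation was 0.334. SEs are the fold change over the square root of F. Marker sums are relative to library totals, other CPM to TMM-scaled sizes. The floor of 3 counts was 47.7 CPM at the lowest depth and 1.31 CPM at the highest, and floors cover counting error only. Adipocyte markers were not analysed here, and 2 of 6 epithelial markers were in the table, with group means of 38.2 to 53.6 CPM.

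The 10 genes and all lists were chosen with earlier results of these data known. Named were the 10 genes, with fold changes against normal for each and in other comparisons at an unadjusted p under 0.05, 6 most alike genes by Pearson's r, and list genes that were called or had 1 of the 3 smallest p of their list, of which only some are printed. Levels were not compared between genes, and ratios of genes were compared only across groups. Start-site windows come from RefSeq, build GRCm38.p6, matched by symbol, since the counts' build differs. Alternatives were DESeq2 1.42.0, limma-voom 3.58.1 with quality weights, other scalings and filters, only the groups compared, the replicate number as a block, each library left out in turn and, added after seeing the data, leaving out the 3 libraries under 150000 counts. Same-numbered libraries of different groups correlated in their deviations from the group means at a median of 0.0918 (27 pairs, 13 over 0.1). Different-numbered ones were at a median of -0.0604 (108 pairs, 39 over 0.1). The ranges overlapped, at -0.44 to 0.54 and -0.54 to 0.56, and whether the numbers mark pairs was not tested. The main model did not use the numbers, and the block is given as an alternative. A withheld result is not reported here. The steps were tested on simulated data. Tables and figures were made with Python 3.11.15, pandas 2.3.3, numpy 2.4.6 and matplotlib 3.10.9.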

Additional observations from a re-analysis of the deposited data

Results flagged for a closer look

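In 5 of 56 groups of libraries, 1 library stood apart from the rest of its group by Dixon's test, which flags about 1 in 20 groups by chance. Col4a2 was at 1166 CPM in day 7 replicate 5, while the other 4 day 7 libraries lay between 553 and 609.8 CPM. Lama2 was at 1033 CPM in day 28 replicate 1, the shallowest library, while the others lay between 329 and 465 CPM. Lama4 was at 110.0 CPM in end-stage replicate 5, another of the shallow libraries, while the others lay between 196 and 208 CPM. Nid1 was at 786 CPM in day 7 replicate 4, while the others lay between 1115 and 1229 CPM. Hspg2 was at 563 CPM in normal replicate 2, while the others lay between 421 and 461 CPM.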

How the results depend on the processing

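Of 45 fold changes followed under other settings, 382 values kept direction and side of the threshold, 9 lost the call, 5 gained it and 4 changed sign. In fits that left out 1 library, these counts were 814, 35, 0 and 6. At day 7, 0 in place of 1 of the 10 genes were called against normal with library size alone (Lamb1 adjusted p 0.0727 by edgeR), no filter (0.0778), only the groups compared (0.110), the replicate number as a block (0.0706) and without the 3 shallow libraries (0.0527), and 0 to 1 with 1 library left out. Among the 4 groups jointly, DESeq2 called 2 in place of 1, adding Nid1, and 0 to 1 were called with 1 library left out. limma-voom called 1 in place of 0 from day 7 to day 28 (Lamb1) and at the end stage against normal (Col4a2). DESeq2, limma-voom and the minimum count of 30 called 1 in place of 0 from day 7 to the end stage (Nid1). Of the values that changed sign, Lama2 at the end stage was -0.0022 with limma-voom, -0.00747 with library size alone, -0.00542 with a minimum count of 30 and -0.37 to 0.30 with 1 library left out. Lamc1 at day 28 was -0.18 without the shallow libraries and -0.0745 to 0.28 with 1 library left out, and Hspg2 at day 28 was -0.16 to 0.0426 with 1 library left out. The causes were not tested, beyond fewer libraries in such fits. With the replicate block, 3 of 53 values and counts changed a call: Lamb1 at day 7 and the count with it, and Lox from day 7 to the end stage, at 1.09 with an adjusted p of 0.0767 by edgeR. Over all genes of the table, edgeR, DESeq2 and limma-voom called 3, 4 and 10 genes at day 7 against normal, 24, 44 and 50 at the end stage against normal, 0, 0 and 32 from day 7 to day 28, 28, 52 and 124 from day 7 to the end stage, 24, 57 and 15 from day 28 to the end stage, and 41, 72 and 105 jointly. Low depth limits day 28 most, where 2 of 5 libraries held under 150000 counts.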
